A study of Mus musculus with 6 samples.

Results

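HCN channels are the pacemaker channels of neurons and heart cells, and Pex5l, also known as TRIP8b, encodes their auxiliary subunit in neurons. The account covers Hcn2, Hcn3, Hcn4 and Pex5l, 4 of the 32531 genes in the count files, which were taken by symbol and not by their values. Libraries came from the thalamus of adult, untreated control mice. All belonged to 1 line, Cbln1-EGFP/Rpl10a (NIDA030), whose tagged cells carry a ribosomal protein fused to green fluorescent protein. The 3 immunopurified (IP) libraries hold RNA recovered with tagged ribosomes, and the 3 Input libraries are those labelled as input, from mice of the same line and with the same molecule label. The names of the deposited files mention the parafascicular nucleus, whereas the labels say only thalamus. Which cells carry the tag, and whether each replicate is 1 animal or a pool, is not stated in the labels. The p-values therefore rest on the spread among libraries, which may be technical.

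As background, HCN channels open when the membrane hyperpolarises and pass a depolarising inward current, and cyclic AMP bound to their intracellular C-terminal domain makes most of them open more readily. In thalamic neurons this current sets the resting potential and, with T-type calcium channels, paces burst firing during sleep rhythms. HCN2 and HCN4 are strongly regulated by cyclic AMP, whereas HCN3 responds little to it. Pex5l is a relative of the peroxisomal import receptor Pex5: its tetratricopeptide repeats grip the last residues of an HCN subunit, and a further contact reduces the response to cyclic AMP. Splice forms of Pex5l differ in whether they raise or lower the number of HCN channels at the cell surface.

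The part of an HCN subunit that the repeats of Pex5l grip is encoded by the last 3 codons of the channel gene, so the ends of the coding sequences are shown here. Each is the last 30 bases before the stop codon, written along the coding strand from 5′ to 3′, with the last 3 codons in capitals (GENCODE M21 transcripts, build mm10).
Hcn2, chr10:79735508-79735537, plus strand: tctgcgcgctcgcgcctctctTCCAACTTG
Hcn3, chr3:89147602-89147631, minus strand: cccagaggtccccaaatttctGCCAACATG
Hcn4, chr9:58860731-58860760, plus strand: ccagtacgctccaaactgccgTCTAATTTA
The capitals of Hcn2 and Hcn4 encode serine, asparagine and leucine, although the codons are spelled differently. Those of Hcn3 encode alanine, asparagine and methionine instead. An end that encodes serine, asparagine and leucine was found in 8 of 21597 protein-coding genes with a complete coding sequence (0.037%), Hcn2 and Hcn4 among them. Over the 30 bases, 16 were identical between Hcn2 and Hcn4, 15 between Hcn2 and Hcn3, and 14 between Hcn3 and Hcn4.

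In IP, Hcn3 was higher and Pex5l lower than in Input, while Hcn2 and Hcn4 did not pass the test. Of the 4 genes 2 were thus called, 1 in each direction, at an adjusted p of 0.05 (edgeR's quasi-likelihood test, Benjamini-Hochberg over 16898 genes tested). Among all genes tested 47.5% were called, 23.3% higher and 24.3% lower, so a call as such was common in this comparison. All 4 genes passed the filter on low counts in both kinds of library.

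The shallowest library, Input replicate 1, had 23929070 counts assigned to genes, and the deepest, IP replicate 1, had 57385828. The label check was met by Cbln1, whose name the line bears: it was 17.9-fold higher in IP (79.8 ± 9.64 CPM in Input, 1429 ± 67.8 in IP, SD, n = 3 each). CPM are read counts scaled to library size after TMM normalisation, which aligns libraries on the bulk of their genes. On this scale the median log2 fold change of all tested genes was -0.07, against -0.25 with upper-quartile scaling and -0.31 with library totals. Calls split into 3930 higher and 4100 lower with TMM, 2887 and 4981 with upper quartiles, and 2458 and 5240 with totals. Marker lists moved between the groups too. Of 10 pan-neuronal genes 9 were higher in IP, with a summed level of 12746 to 13692 CPM in Input and 24641 to 29492 in IP. All 10 astrocyte genes were lower (2434 to 2506 CPM in Input, 839.5 to 899 in IP), as were all 12 genes of oligodendrocytes and their precursors (3737 to 4291 and 319.8 to 407), 9 of 10 of GABAergic and reticular nucleus neurons (618 to 876 and 117 to 133), 7 of 8 of the habenula (190.0 to 308 and 147 to 184), 6 of 8 of microglia (40.9 to 49.8 and 4.40 to 7.74) and 6 of 9 of vessels and choroid plexus (68.4 to 616 and 24.6 to 61.0). The sums follow the most abundant gene of a list. For pan-neuronal genes this was Snap25, with 9301 CPM in Input and 19373 in IP. Nwd2 of the habenula list (117 ± 36.9 CPM in Input, 122 ± 8.71 in IP) was not called. Neither was Ttr of the vessel and choroid plexus list (341 ± 294 and 25.2 ± 22.0). The vascular marker Cldn5 was at 0 counts in all IP libraries, and no other marker on these lists was. Thalamic glutamatergic markers split, 5 of 10 higher and 3 lower. The part of these cell types in the values of the 4 genes was not tested. A marker level here is a share of the RNA in IP or in Input, and it does not give numbers of cells.

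**Figure D1:**
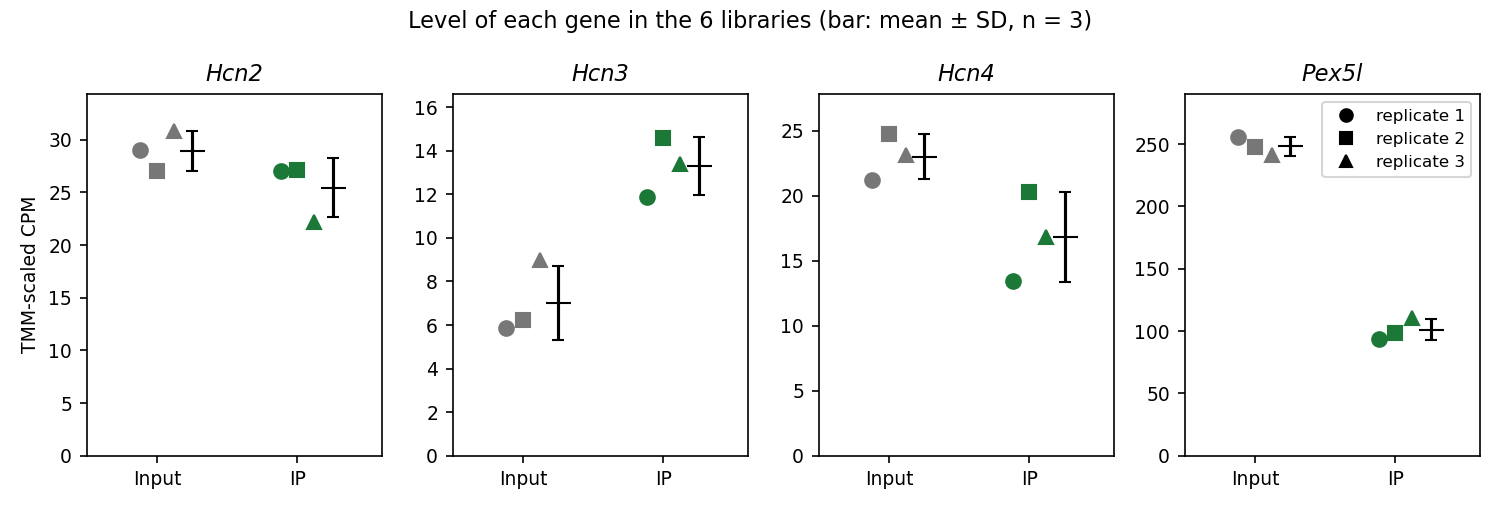
TMM-scaled CPM (vertical axes, each from 0) of Hcn2, Hcn3, Hcn4 and Pex5l in the 3 Input (grey) and 3 IP (green) libraries, with 1 marker shape per replicate number and bars for mean ± SD. The groups overlap for Hcn2 only; Hcn3 rises from 7.02 to 13.3 CPM and Pex5l falls from 248 to 101.

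Hcn3, whose product responds little to cyclic AMP, lies on chromosome 3 at 89146074 to 89160196 (mm10, minus strand). In replicates 1 to 3, Input held 150, 323 and 469 counts of Hcn3, and IP 593, 671 and 570. On the CPM scale this came to 5.88, 6.22 and 8.97 in Input and 11.9, 14.6 and 13.4 in IP. Every IP library thus stood above every Input library, and Input replicate 3 was the highest of its group. Such a gap between the groups was seen for 61.6% of all tested genes, and for Hcn3, Hcn4 and Pex5l of the 4. Hcn3 was 1.89-fold higher in IP (log2 fold change 0.92, SE 0.23, 95% interval 0.41 to 1.43, adjusted p = 0.00865 by edgeR's quasi-likelihood test). Its log2 ratios of IP to Input in replicate numbers 1 to 3 were 1.01, 1.23 and 0.58. The numbers were not taken as pairs, so these ratios are a description only. Of all tested genes, 90.4% had a log2 fold change at or below that of Hcn3. The call was lost without replicate number 2 (log2 fold change 0.77, adjusted p = 0.0811, edgeR) and in a test against a 1.5-fold change (adjusted p = 0.0951). The count of 150 in Input replicate 1 has an exact 95% Poisson interval of 127 to 176, which covers counting error only.

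Pex5l, the auxiliary subunit gene, lies on the same chromosome at 32949408 to 33143247 (minus strand) and is spread over 193.8 kb, with 12 annotated transcripts that a count per gene does not tell apart. Input libraries gave 6528, 12890 and 12589 counts of Pex5l, IP libraries 4693, 4523 and 4693. Scaled, these were 256, 248 and 241 CPM in Input and 93.9, 98.6 and 110.4 in IP. The groups lay far apart, and within each group the libraries differed little. Pex5l was 2.46-fold lower in IP (log2 fold change -1.30, SE 0.09, 95% interval -1.50 to -1.10, adjusted p = 7.87e-06 by edgeR's quasi-likelihood test). Its log2 ratios in the 3 replicate numbers, again not taken as pairs, were -1.45, -1.33 and -1.13. The call held in all 18 alternatives, with log2 fold changes from -1.53 to -1.22. The decrease was not extreme among all genes, since 22.8% of those tested had a log2 fold change at or below it.

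Hcn2 encodes a widely expressed brain subunit whose loss in mice is known to cause absence seizures. The gene lies on chromosome 10 at 79716634 to 79736108 (plus strand). Its counts of 741, 1404 and 1610 in Input stood against 1350, 1244 and 942 in IP, or 29.0, 27.0 and 30.8 CPM against 27.0, 27.1 and 22.2. The groups overlapped, and IP replicate 3 was the lowest library. The difference did not pass the test (log2 fold change -0.19, SE 0.14, 95% interval -0.50 to 0.13, adjusted p = 0.296, edgeR). That interval allows a level in IP from 0.707 to 1.09 times that in Input, and it does not show that the levels are equal. Only library-total scaling called Hcn2 (log2 fold change -0.43, adjusted p = 0.0351), a setting that moved the median of all genes to -0.31.

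Hcn4, best known from the sinoatrial node of the heart and in the brain a channel of thalamic relay neurons, lies on chromosome 9 at 58823412 to 58863175 (plus strand). Counts of 540, 1283 and 1208 in Input stood against 670, 931 and 716 in IP. These were 21.2, 24.7 and 23.1 CPM in Input and 13.4, 20.3 and 16.8 in IP. Each IP library was below each Input library, with IP replicate 2 close to Input replicate 1. The log2 fold change of -0.45 (SE 0.18, 95% interval -0.86 to -0.04) did not pass after adjustment (adjusted p = 0.0664, edgeR). Hcn4 stood near the threshold: it was called in 6 of 18 alternatives, with log2 fold changes from -0.68 to -0.30 over all of them. Without IP replicate 2 the value was -0.60 (adjusted p = 0.0173). With DESeq2 it was -0.49 (adjusted p = 0.0275) and with limma-voom -0.49 (adjusted p = 0.0361).

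**Figure D2:**
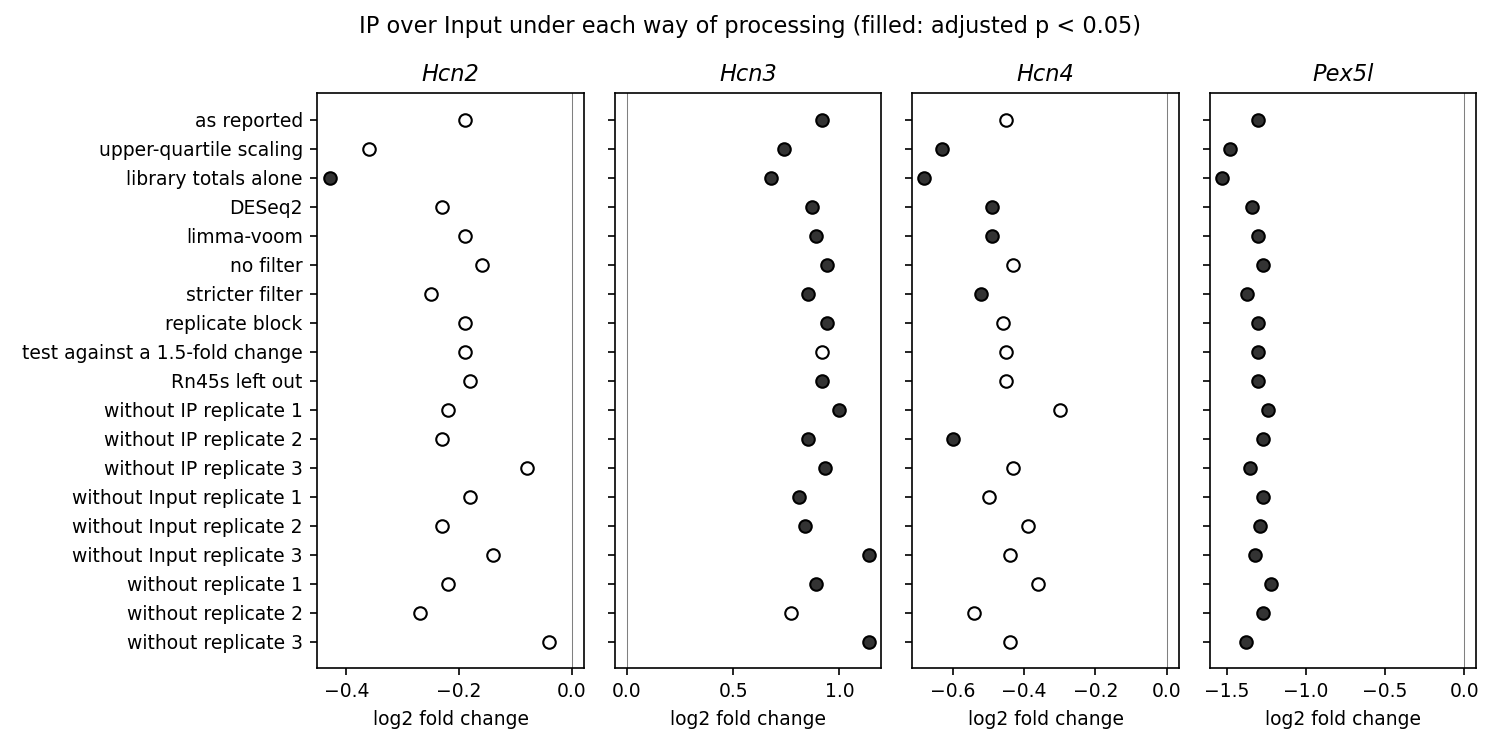
Log2 fold change of IP over Input (horizontal axes) for Hcn2, Hcn3, Hcn4 and Pex5l as reported and under each of 18 alternatives (rows), filled where the adjusted p is under 0.05. Each gene keeps its sign in every row; Pex5l is filled in all 18 alternatives, Hcn3 in 16, Hcn4 in 6 and Hcn2 in 1.

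Levels of different genes were compared per kilobase of annotated exon. In Input the order was Pex5l at 28.1 ± 0.838 CPM per kb, Hcn2 at 9.06 ± 0.591, Hcn4 at 3.76 ± 0.291 and Hcn3 at 1.69 ± 0.409 (SD, n = 3 each). In IP it was Pex5l at 11.4 ± 0.963, Hcn2 at 7.96 ± 0.885, Hcn3 at 3.20 ± 0.333 and Hcn4 at 2.75 ± 0.563. The neighbours Hcn3 and Hcn4 did not differ beyond their spread in IP, where Hcn3 ran from 2.86 to 3.52 and Hcn4 from 2.19 to 3.32. In Input the ranges of all 4 genes were separate, with Hcn3 between 1.41 and 2.16 and Hcn4 between 3.46 and 4.04. The level of Pex5l depends on the length used: per kilobase of its longest annotated transcript (4.21 kb, against 8.85 kb for all its exons) it was 59.0 in Input and 24.0 in IP.

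Ratios of counts within a library do not depend on how libraries are scaled, so the balance among the 4 genes was also read that way. Per count of Hcn2, Hcn3 had 0.202, 0.230 and 0.291 in Input and 0.439, 0.539 and 0.605 in IP. The ratio of Hcn3 to Hcn4 was 0.278, 0.252 and 0.388 in Input and 0.885, 0.721 and 0.796 in IP. In both ratios all IP libraries were above all Input libraries, by 2.19-fold against Hcn2 and 2.65-fold against Hcn4. The ratio of Hcn4 to Hcn2 overlapped between the groups (0.798 ± 0.101 in Input, 0.668 ± 0.149 in IP), and IP replicate 1 was lowest at 0.496. Leaving out IP replicate 1 or any other library or number moved its log2 difference of -0.27 to between -0.42 and -0.07.

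Counts of the auxiliary subunit gene per count of each channel gene were lower in IP. Pex5l had 8.81, 9.18 and 7.82 counts per count of Hcn2 in Input and 3.48, 3.64 and 4.98 in IP. Per count of Hcn4 it had 10.9 ± 1.09 in Input and 6.14 ± 1.13 in IP, and per count of Hcn3 36.8 ± 8.77 and 7.63 ± 0.786. In these 3 ratios no IP library reached the range of Input. In all 6 ratios were computed. For the 5 without overlap the exact two-sided permutation p was 0.1, the smallest that 3 against 3 libraries allow, and 0.12 after adjustment over all 6. None of them can therefore pass 0.05 in this design. Members of a ratio share their libraries, and the ratios share members, so they are not separate lines of support.

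**Figure D3:**
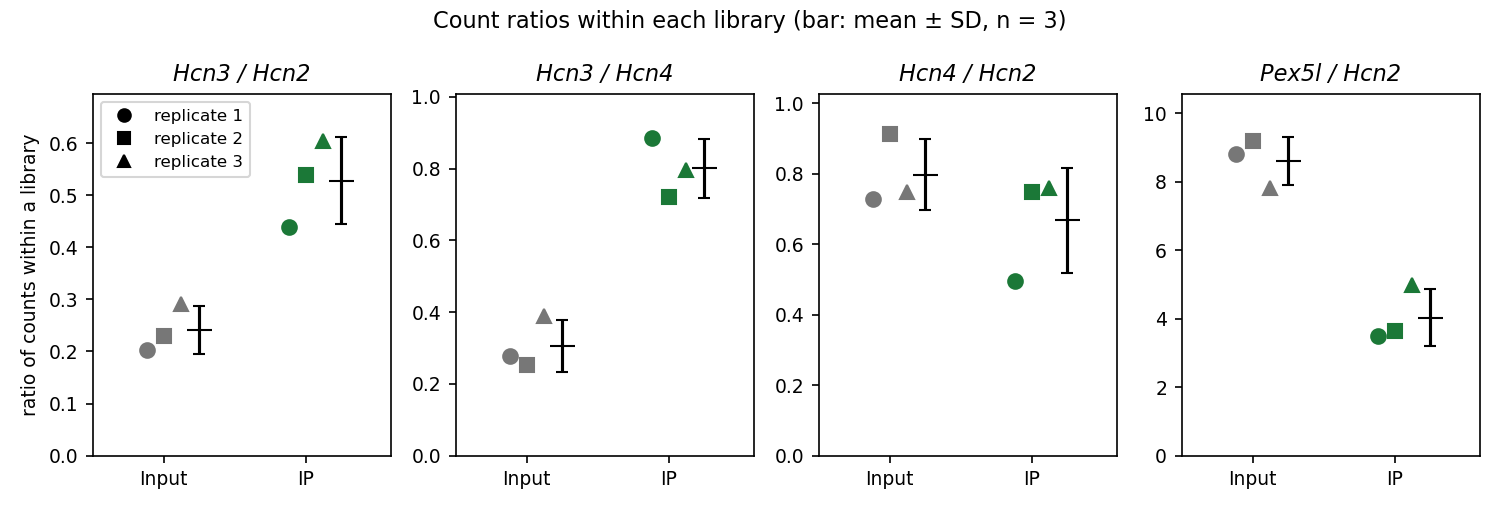
Ratio of counts within a library (vertical axes, each from 0) for Hcn3 to Hcn2, Hcn3 to Hcn4, Hcn4 to Hcn2 and Pex5l to Hcn2 in the 3 Input (grey) and 3 IP (green) libraries, with bars for mean ± SD. Hcn3 gains on both other channel genes in IP, the Hcn4 to Hcn2 ratio overlaps, and Pex5l to Hcn2 drops from 8.60 to 4.03.

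Of the genes beside the 4 loci, some changed and others did not pass the test. Hcn3 overlaps the end of Pklr, a pyruvate kinase gene on the opposite strand, by 711 exonic bases. Pklr itself had 3 to 35 counts in Input and 28 to 39 in IP. Because the strand setting of the counting is not given, it is not known whether reads in the overlap were counted for Hcn3, for Pklr or for neither. The 4.15 kb of exon used for the level of Hcn3 per kb includes this overlap. The next gene on the other side of Hcn3, the kinase gene Clk2, was not called (log2 fold change 0.08, adjusted p = 0.681, edgeR). Pex5l holds the antisense gene 4930419G24Rik, with 24 shared exonic bases and 19, 68 and 51 counts in Input against 0 in each IP library, far fewer than Pex5l. Usp13, the next gene beyond Pex5l on the lower side, was not called (0.03, adjusted p = 0.847). Polrmt ends 14 bases from Hcn2 on the opposite strand and was not called (0.03, adjusted p = 0.913), while Bsg on the other side of Hcn2 rose (0.48, adjusted p = 0.00447), but was not called with library totals (0.25, adjusted p = 0.138). Beside Hcn4, Neo1 fell (-0.86, adjusted p = 8.10e-05) and Rec114 was not called (-2.31, adjusted p = 0.126).

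The 8 lists of genes that act with HCN channels held 103 tested genes besides the 4. Of these, 27 were higher and 24 lower in IP, 49.5% in all, close to the 47.5% of all genes tested. Their median log2 fold change was 0.01, against -0.07 for all genes. The count of higher genes fell to 15 without replicate number 3 and to 13 with library totals. The counts of each list below stand beside 23.3% higher and 24.3% lower among all genes tested.

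**Figure D4:**
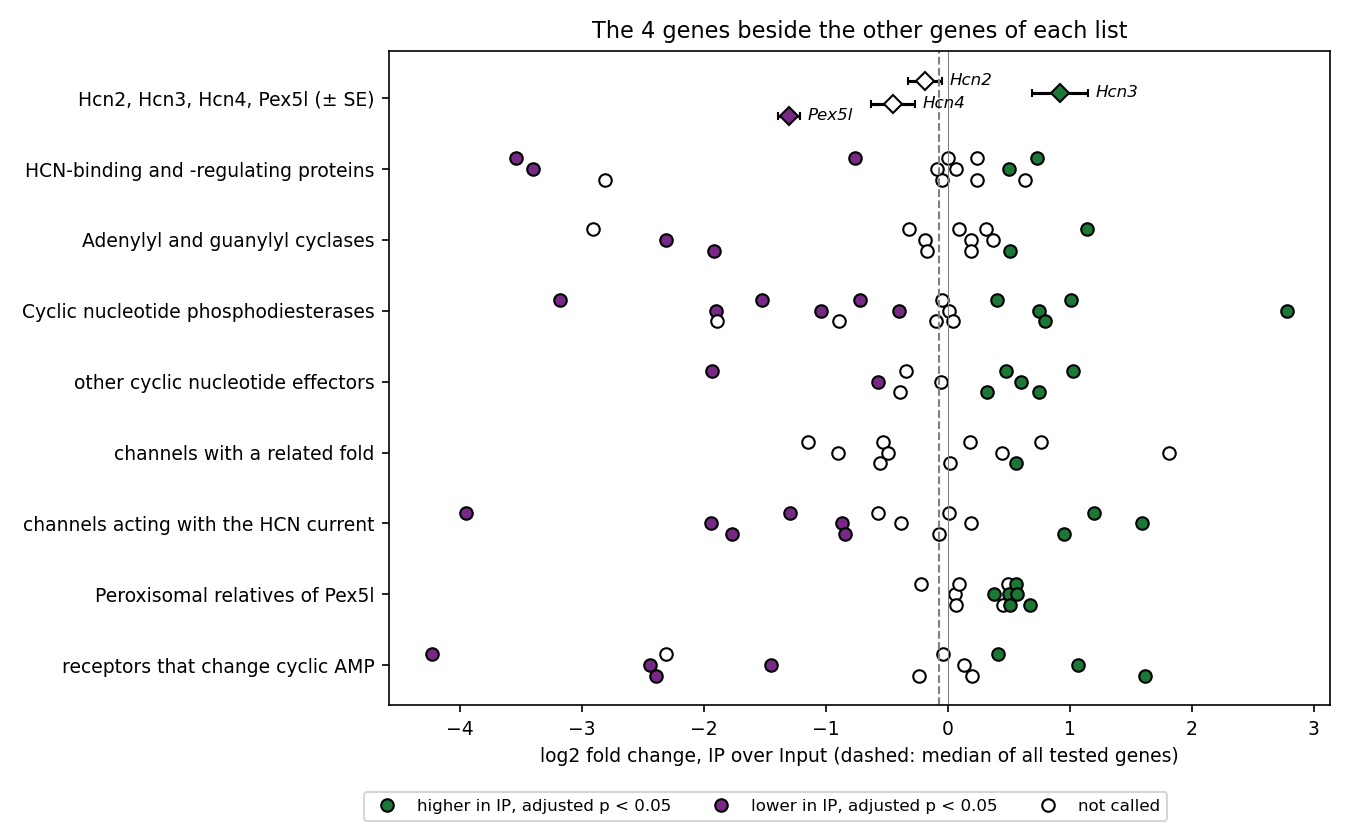
Log2 fold change of IP over Input (horizontal axis) for the 4 genes (diamonds, ± SE) and for the tested genes of 8 lists (circles, 1 row per list), green where higher, purple where lower and white where not called; the dashed line is the median of all genes, -0.07. Genes at 0 counts in all libraries of a group are left out; most lists spread to both sides, and the peroxisomal list has no gene called lower.

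Proteins known to bind or regulate HCN channels went both ways. Of 14 tested, 2 were higher and 4 lower, Pex5l included, with a median of -0.02. Vapb, an endoplasmic reticulum protein that promotes HCN surface levels, rose from 181 ± 11.2 to 299.9 ± 18.9 CPM (log2 fold change 0.73, adjusted p = 1.55e-04, edgeR). Mrvi1, whose product shifts the gating of HCN4, fell from 44.9 ± 7.64 to 3.86 ± 0.189 CPM (-3.54), and the actin cross-linker gene Flna fell from 11.9 ± 0.770 to 1.13 ± 0.134 (-3.40). The other called genes were Vapa, a relative of Vapb (0.50, adjusted p = 0.00795, edgeR), and the adaptor gene Apba2 (-0.76, adjusted p = 0.00235). Without replicate number 3 only Vapb was called higher (Vapa at an adjusted p of 0.0578), as with upper-quartile scaling (0.0585) or library totals (0.0798). In the test against a 1.5-fold change 0 genes of the list were higher (adjusted p = 0.069 for Vapb and 0.797 for Vapa). Kctd3, which is known to bind HCN3, had 58.2 ± 4.51 CPM in Input and 54.8 ± 16.9 in IP (-0.09, adjusted p = 0.746). Kctd3, Vapa and Apba2 were named after their values were seen.

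Enzymes that make cyclic nucleotides were mostly not called: of 13 tested cyclase genes 2 were higher and 2 lower (median 0.09). The adenylyl cyclase genes Adcy2 (log2 fold change 1.14, adjusted p = 0.00124, edgeR) and Adcy5 (0.51, adjusted p = 0.00767) rose, and the guanylyl cyclase subunit gene Gucy1a3 fell (-1.92, adjusted p = 8.19e-04), as did Adcy7 (-2.31, adjusted p = 0.00911, named after its value was seen). The most abundant, Adcy1, had 348 ± 61.8 CPM in Input and 310.4 ± 35.7 in IP (-0.17, adjusted p = 0.338). Adcy5 was no longer called when replicate number 2 (adjusted p = 0.0504) or 3 (adjusted p = 0.0509) was left out, where the list had 1 higher gene. With library totals Adcy5 was at 0.27 (adjusted p = 0.145), and the list again had 1 higher gene. The test against a 1.5-fold change also left 1 higher gene (Adcy5 at an adjusted p of 0.778). Without IP replicate 3 it had 4 higher genes and without IP replicate 1 4 lower ones.

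Of 17 phosphodiesterase genes, whose products break cyclic nucleotides down, 5 were higher and 6 lower (median -0.10), and 3 and 3 in the test against a 1.5-fold change. Pde5a, which acts on cyclic GMP, rose from 8.66 ± 0.927 to 59.9 ± 3.79 CPM (log2 fold change 2.78, adjusted p = 1.32e-06, edgeR). The cyclic AMP-specific Pde4a, the most abundant over the 6 libraries, rose from 157 ± 3.31 to 315 ± 7.18 CPM (1.01, adjusted p = 1.02e-05). Pde8a, also specific for cyclic AMP, fell from 26.5 ± 4.49 to 2.93 ± 1.17 CPM (-3.18), and the calmodulin-dependent Pde1a from 62.1 ± 6.50 to 16.6 ± 9.46 (-1.90).

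Other proteins that cyclic nucleotides act on, the kinases and exchange factors, had 5 of 10 genes higher and 2 lower (median 0.13). The protein kinase A genes Prkaca (log2 fold change 1.03, adjusted p = 8.94e-06, edgeR), Prkar1b (0.75, adjusted p = 3.42e-04) and Prkar1a (0.32, adjusted p = 0.00299) rose. Rapgef3, an exchange factor switched on by cyclic AMP, fell (-1.93, adjusted p = 4.24e-04). Also called, and named after their values were seen, were the kinase genes Prkacb (0.48, adjusted p = 0.00372) and Prkg2 (0.60, adjusted p = 0.00534) and the exchange factor gene Rapgef4 (-0.57, adjusted p = 0.0013). Leaving out replicate number 3 ended the calls of Prkar1a (adjusted p = 0.0578) and Prkacb (0.0527) and left 3 genes higher. Prkar1a also lost it with upper-quartile scaling (adjusted p = 0.0928). With library totals Prkar1a (0.356), Prkacb (0.0529) and Prkg2 (0.0544) were not called, and the list had 2 genes higher and 4 lower. In the test against a 1.5-fold change it had 1 higher and 1 lower.

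Among receptors that change cyclic AMP, 3 of 12 were higher and 4 lower (median -0.14). Htr7, a serotonin receptor coupled to adenylyl cyclase, rose from 22.7 ± 2.84 to 69.8 ± 4.08 CPM (log2 fold change 1.62, adjusted p = 1.62e-05, edgeR). Adora1, an adenosine receptor that inhibits the cyclase, rose less (0.41, adjusted p = 0.0049). The inhibitory receptor genes Drd2 (-2.39, adjusted p = 6.00e-05) and Htr1a (-2.44, adjusted p = 0.0327) fell. Adrenergic receptor genes coupled to inhibition went both ways, Adra2a up (1.07, adjusted p = 0.00341) and Adra2b down (-1.45, adjusted p = 0.00464). Both were named after their values were seen, as was the dopamine receptor gene Drd1. Drd1 was scarce, with 1.98 ± 0.423 CPM in Input and 0.103 ± 0.103 in IP. It was called lower (-4.23, SE 0.92, adjusted p = 0.00461, edgeR, but 0.0557 without replicate number 3). Adora1 was not called once replicate number 3 was left out (adjusted p = 0.055), nor with upper-quartile (0.0545) or library-total scaling (0.195). Htr1a missed the threshold in 5 leave-outs: IP replicate 1 (adjusted p = 0.0582), each Input library in turn (0.0674 to 0.1) and number 1 (0.178).

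Channels that act with the HCN current in thalamic rhythms had 3 of 14 genes higher and 6 lower (median -0.47). Kcnk2, a potassium leak channel gene, rose from 21.3 ± 2.31 to 64.1 ± 9.52 CPM (log2 fold change 1.59, adjusted p = 3.61e-05, edgeR). Its relative Kcnk9 (-1.94, adjusted p = 0.00118) and the inward rectifier gene Kcnj2 (-1.77, adjusted p = 0.00126) fell. Named after their values were seen, the leak channel gene Kcnk3 (0.95, adjusted p = 0.00178) and the calcium-activated Kcnn1 (1.20, adjusted p = 0.00246) rose, while its relative Kcnn2 (-1.29, adjusted p = 9.72e-04) and the calcium channel genes Cacna1d (-0.87, adjusted p = 9.44e-04) and Cacna1h (-0.84, adjusted p = 0.0455) fell. Cacna1h kept its call without IP replicate 2 or replicate number 2 but not in the other 7 leave-outs (adjusted p from 0.0758 to 0.257). The T-type calcium channel gene Cacna1g had 90.8 CPM in Input and 91.5 in IP (0.01, adjusted p = 0.931). Kcnma1, the most abundant of the list, had 147 ± 15.4 CPM in Input and 141 ± 14.2 in IP (-0.07, adjusted p = 0.647, but -0.31 and 0.0427 with library totals).

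Channels that share the fold of the cyclic nucleotide-binding domain were mostly not called. Of 12 tested, 1 was higher and 1 lower (median -0.24). Kcnh7 rose from 22.8 ± 1.07 to 33.6 ± 3.23 CPM (log2 fold change 0.56, adjusted p = 0.0067, edgeR). It was not called without replicate number 3 (adjusted p = 0.0859), with library totals (0.0953) or in the test against a 1.5-fold change (0.592). Kcnh2 had 29.3 ± 5.62 CPM in Input and 33.2 ± 4.69 in IP (0.18, adjusted p = 0.407). The gene called lower, Cngb3, had 0.284 CPM in Input and 0 counts in IP, so no fold is given. That call was lost with the replicate number as a block, where 0 genes of the list were lower. Calls here moved with single libraries: 4 genes were lower without IP replicate 3, 2 without IP replicate 1 or 2 or replicate number 2 or 3, and 2 were higher without IP replicate 1 or replicate number 1.

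The peroxisomal relatives of Pex5l did not fall with it. Of 12 tested, 6 were higher and 0 lower (median 0.47) at an adjusted p of 0.05 with edgeR. Among all genes tested 23.3% were higher and 24.3% lower (median -0.07). Pex5, the import receptor most like Pex5l, had 17.3 ± 1.01 CPM in Input and 18.1 ± 2.98 in IP (log2 fold change 0.07, adjusted p = 0.776, named after its value was seen). Pex2 (0.57, adjusted p = 0.019), Pex7 (0.56, adjusted p = 0.00718) and the most abundant, Pex19 (0.38, adjusted p = 0.0147), rose. Pex14 (0.51, adjusted p = 0.0181) and Pex3 (0.50, adjusted p = 0.0262), named after their values were seen, rose too. These calls depended on the settings. With library totals 0 genes were higher, as in the test against a 1.5-fold change, and with upper quartiles 2. There were 3 higher without Input replicate 2 or 3, 2 without replicate number 2 and 1 without number 3. Without IP replicate 3, 1 gene was lower. Pex2 was not called without Input replicate 1 or 2 or any 1 number (adjusted p from 0.0601 to 0.0933), nor Pex19 without Input replicate 3 or any 1 number (0.0509 to 0.0802). Pex14 was not called without Input replicate 2 or 3 or number 2 or 3 (0.0689 to 0.127), and Pex3 not without any 1 Input library or number (0.0732 to 0.106). Pex7 lost its call with library totals (adjusted p = 0.082).

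For each of the 4 genes the 3 protein-coding genes with the most similar profile over the 6 libraries were sought among 10019 with a mean of at least 5 CPM, by the root mean square difference of log2 CPM centred on each gene's mean. The nearest to Hcn2 were Vps11 (0.026), Rbpj (0.042) and Aifm1 (0.042), none of them called, although Vps11 was with upper quartiles (adjusted p = 0.0371) and Vps11 (0.0263) and Aifm1 (0.041) were with library totals. Hcn3 had none as close, with Klf10 (0.092), Gpn2 (0.096) and Cox18 (0.119), all called higher. Without replicate number 2, Klf10 (adjusted p = 0.0585) and Gpn2 (0.114) were not, and Gpn2 was not without Input replicate 1 or 2 or number 1 (0.0587 to 0.0608). Hcn4 was nearest to Bicd2 (0.047), Jtb (0.061) and Dip2a (0.063), and Pex5l to Zfp516 (0.042), Nmral1 (0.054) and Nktr (0.060). All these genes were picked for a profile close to that of Hcn2, Hcn3, Hcn4 or Pex5l in the same 6 libraries. A similar direction and size of change therefore follows from the choice and is no separate finding. The 3 near Pex5l were called lower, with log2 fold changes of -1.42 to -1.23, and so were Bicd2 and Dip2a near Hcn4, though neither without replicate number 3 (adjusted p = 0.122 and 0.12) or Input replicate 2 or 3 (0.0686 to 0.0939), nor Dip2a without Input replicate 1 (0.064).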

How the data were processed

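RNA-seq read counts were analysed from 6 libraries of mouse thalamus, 3 IP and 3 Input. The authors deposited raw counts per gene symbol, 1 file per library. STAR 2.0.0e, HTSeq and the build mm10 are named in the submitters' processing notes, while the strand setting and annotation of the counting are not given in the sources used here. The 6 closing lines tied to no gene were left out of library sizes, and their reads made up 53.2 to 59.8% of each file's total. Groups and replicate numbers came from the titles.

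The tests used edgeR 4.0.16 under R 4.3.3 on these counts: filterByExpr (minimum count 10), TMM scaling and the robust quasi-likelihood F-test of IP against Input over all libraries, with no covariate. P-values were adjusted by Benjamini-Hochberg over all 16898 genes tested. SE came from the F statistic, and intervals from SE and the test's degrees of freedom. The test was run on simulated counts first. Alternatives used DESeq2 1.42.0, limma 3.58.1 (voom), other scalings and filters, a test against a 1.5-fold change and fewer libraries. Lengths and positions came from GENCODE M21, of the same build.

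The members, the 8 lists and the rules were chosen with earlier results of these data known. From each list the text names the most abundant gene and the 3 largest called changes among genes averaging 5 CPM or more. Ratios were computed from counts and were chosen after the data were seen. Some genes of these families are not reported here.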

Additional observations from a re-analysis of the deposited data

How the results depend on the processing

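Over 18 alternatives, Pex5l kept its direction and its call (log2 fold change -1.53 to -1.22). Hcn3 kept its direction and lost its call in the test against a 1.5-fold change (0.92, adjusted p = 0.0951) and when replicate number 2 was left out (0.77); leaving out libraries gave 0.77 to 1.14. Hcn4, not called as reported, was called with upper-quartile scaling (-0.63, adjusted p = 0.0171), library totals (-0.68), DESeq2 (-0.49), limma-voom (-0.49) and the stricter filter of 50 counts in 3 libraries (-0.52); leaving out libraries gave -0.60 to -0.30. Hcn2 was called with library totals only (-0.43). Leaving out 1 replicate number leaves 2 libraries a group. Genes called higher numbered 3930, against 2458 with library totals and 1484 in the test against a 1.5-fold change, which called 2700 lower instead of 4100. Over the 8 lists 27 genes were higher, against 13 and 10 in the same settings and 15 to 32 when libraries were left out. With library totals, levels per kb in Input were 9.85 for Hcn2, 4.08 for Hcn4 and 30.5 for Pex5l, and per longest transcript Pex5l had 59.0 in Input and 24.0 in IP. Among 69 other named genes, 99 of 1238 values lost a call and 9 gained one. Genes that changed sign were all uncalled as reported. With upper quartiles and library totals these were Cacna1g (-0.17, -0.23), Pex5 (-0.11, -0.17), Polrmt (-0.15, -0.21), Clk2 (-0.10, -0.16) and Usp13 (-0.14, -0.21), and with totals Kcnh2 (-0.04). With DESeq2 and the stricter filter they were Cacna1g (-0.03, -0.06), Polrmt (-0.01, -0.04) and Usp13 (-0.01, -0.03), and with the filter Pex5 (-0.00). Without single libraries or numbers, values ran from -0.21 to 0.09 for Kcnma1, -0.32 to 0.12 for Kctd3, -0.03 to 0.08 for Cacna1g, -0.07 to 0.15 for Pex5, -0.10 to 0.14 for Polrmt, -0.00 to 0.16 for Clk2 and -0.04 to 0.09 for Usp13. The cause of these shifts was not tested.

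Same-numbered IP and Input libraries share a lane in the labels, but their deviations from the group means correlated by only 0.06, 0.04 and 0.01 over 16898 genes. These values were under the threshold of 0.1, so the numbers were not taken as pairs. The same number gave the highest correlation for IP replicates 1 and 2, while IP replicate 3 correlated better with Input replicate 2 (0.02). Deviations from a mean of 3 libraries are tied to each other, so these values do not settle whether libraries were paired. With the replicate number as a block, log2 fold changes were -0.19 for Hcn2, 0.94 for Hcn3, -0.46 for Hcn4 (adjusted p = 0.0514) and -1.30 for Pex5l, which changed no call of the 4. In the list of channels with a related fold it left 0 genes lower instead of 1; all other list counts stayed within 1.5 times, and 3793 genes were higher and 4038 lower. Counting error was 8.16% for the lowest member count, Hcn3 in Input replicate 1.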
